A study of Homo sapiens with 6 samples.

Results

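MIR335 gives 2 mature miRNAs, miR-335-5p and miR-335-3p, one from each side of the same hairpin. They were picked out by name in the deposited table, each mature sequence counted once, and are 2 of its 463 distinct sequences. Both arms were chosen knowing that an earlier count test of this table had called miR-335-3p lower after co-culture. The comparison of co-culture with single culture is therefore given below as a description, without p-values for the arms. Whether miR-335-3p passed a threshold in a fit is stated only to show how that call depended on the setting.

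The libraries are small RNA from LX-2, a human line of immortalized hepatic stellate cells, activated in both groups by TGF-β1, which turns stellate cells into collagen-producing ones. In the co-culture group (labelled LX-2+MSC, 3 libraries) the cells shared medium across a porous membrane with HUC-MSCs, mesenchymal stem cells of human umbilical cord, for 48 h. In the single culture group (labelled LX-2, 3 libraries) the upper chamber held no cells. Per the labels the TGF-β1 dose was 10 ng/mL and it lasted 24 h, whereas the study's methods give 48 h. LX-2 is 1 cell line, and only its RNA was sequenced, so tags made by the LX-2 cells and any taken up from the HUC-MSCs cannot be told apart. The RNA is bulk, so fewer cells with a transcript and less of it per cell cannot be told apart either. A library is named below by the number in its column name, because the columns show the group but not which sample of it.

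A miRNA hairpin is cut to a short duplex, and one strand is usually kept in an Argonaute protein while the other is lost. The kept strand finds its target mRNAs mainly through its seed, bases 2 to 8. MIR335 lies inside MEST, an imprinted gene that is read from the paternal copy. The 5p arm was long called simply miR-335, and the 3p arm was the star strand. As miR-335 it is known for restraining metastasis in breast cancer cells through SOX4 and tenascin C, for being abundant in human mesenchymal stem cells, where RUNX2 is a target, and, in rat, for limiting stellate cell migration through tenascin C.

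The sequences are shown because the arms are told apart by them alone. RefSeq gives both arms and the hairpin on GRCh38.p14, and the deposited sequences are identical to its mature arms. Capitals mark the seed.
miR-335-5p: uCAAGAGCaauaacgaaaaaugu
miR-335-3p: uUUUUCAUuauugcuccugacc

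In the hairpin, capitals mark the 5p arm first and the 3p arm second.
MIR335 hairpin: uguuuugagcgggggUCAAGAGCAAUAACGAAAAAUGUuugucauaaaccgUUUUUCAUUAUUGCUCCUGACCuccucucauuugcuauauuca

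The hairpin spans 94 bases on chromosome 7 from 130496111 to 130496204, on the plus strand. The 23 nt 5p arm lies from 130496126 to 130496148, and the 22 nt 3p arm lies from 130496162 to 130496183. In GENCODE release 29, also on GRCh38, MEST runs from 130486171 to 130506465 on the same strand. All 13 of its 17 annotated transcripts that span the hairpin carry it in an intron, from 130495523 to 130497155, and none carries it in an exon. The antisense gene AC007938.2 overlaps the hairpin on the minus strand. MEST mRNA was not measured in these libraries.

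The arms have unlike seeds, CAAGAGC for 5p and UUUUCAU for 3p. Neither seed occurred in any other of the 463 listed sequences. Among 2351 distinct mature human miRNA sequences in RefSeq, each seed belonged only to its own arm. In the fold that RNAfold gave for the hairpin (-40.2 kcal/mol), 18 base pairs joined the arms, 13 of them A-U and 5 G-C. The first 5 bases of the 3p arm were all U or A and all sat in A-U pairs. Of the first 5 bases of the 5p arm, 4 were paired, 2 in G-C and 2 in A-U pairs. No listed sequence other than the arms themselves was a stretch of the hairpin, and none contained the middle of an arm with its ends shifted.

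In these cells the 3p arm made up nearly all MIR335 tags. Co-culture libraries 1, 2 and 3 held 109, 193 and 132 raw tags of the hairpin, of which 3, 2 and 2 were miR-335-5p and the rest miR-335-3p. Single culture libraries 1, 2 and 3 held 253, 46 and 58 listed tags, all of them miR-335-3p, and miR-335-5p is blank there. The smallest count in the table is 2, so a blank stands for 0 or 1 tag. The plot of raw tags shows the 3p arm far above the 5p arm in each library.

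**Figure D1:**
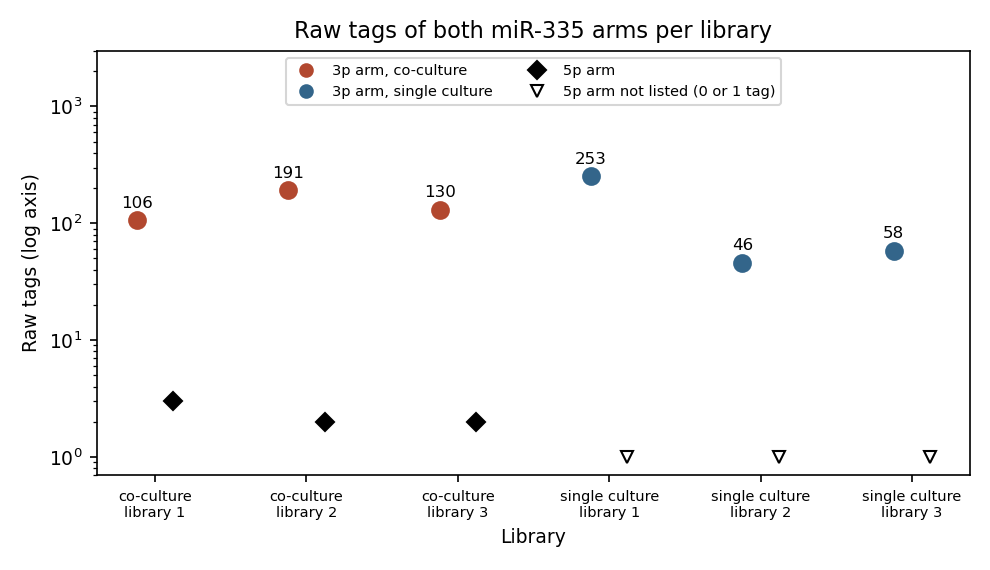
Raw tags (vertical log axis) of both miR-335 arms in each library (horizontal axis), with circles for the 3p arm, diamonds for the 5p arm and open triangles, drawn at 1, where the 5p arm was not listed. The 3p arm had 46 to 253 tags, and the 5p arm had 2 or 3 tags in co-culture and none listed in single culture.

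In co-culture the 3p arm outnumbered the 5p arm by 35.3, 95.5 and 65.0 to 1 in libraries 1, 2 and 3. With 3 tags per library as the limit for an arm that was not listed, it was at least 84.3-fold, 15.3-fold and 19.3-fold higher in single culture libraries 1, 2 and 3. The 3p arm was the higher one in 6 of 6 libraries. These are ratios of tags, and how evenly the libraries captured the 2 arms was not tested. The mean log2 ratio of 3p to 5p tags, with 0.5 added to each, was 6.55 ± 1.38 (SD, n = 6), and with each blank taken as 3 tags it was 5.39. An exact two-sided sign-flip permutation test over the 6 libraries gave p = 0.0312, the smallest that 6 libraries can give. With all 6 ratios above 0 the test can return no other value, so this p adds nothing to the counts. The 3p arm was also known to have passed the minimum count when the arms were chosen.

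The 5p arm was 2.75% of the tags of both arms in co-culture library 1 (95% exact binomial interval 0.571% to 7.83%), 1.04% in library 2 (0.126% to 3.69%) and 1.52% in library 3 (0.184% to 5.37%). Pooled over the co-culture libraries it was 7 of 434 tags, or 1.61% (0.651% to 3.29%). In single culture, with 357 listed 3p tags, the 3 blanks allow between 0 and 3 tags of the 5p arm, so at most a pooled share of 0.833%. By library, a blank allows at most 0.394%, 2.13% and 1.69% in single culture libraries 1, 2 and 3. Libraries 2 and 3 of single culture could thus hold a larger share than those of co-culture. At the pooled co-culture share, 5.85 tags of the 5p arm would have been expected there. These intervals cover counting error only. The mean log2 ratio of 3p to 5p, co-culture minus single culture, was -1.83 with 0.5 added and -0.54 with each blank at 1 tag, the most that a blank can stand for. With the blanks at 1 tag the libraries of the groups overlapped, and without single culture library 1 the difference was 0.22, a setting added after seeing the data. The direction of the arm ratio between the groups thus depended on that library when the blanks were set at 1 tag. With 0.5 added it was negative without each library in turn (-2.30 to -1.07).

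Against other precursors the miR-335 ratio was high but not alone. Both arms were listed for 69 precursors, and 44 of these had at least 100 tags over both arms and all libraries. The 3p arm was the higher one in 20 of the 44 and the 5p arm in 24. By the log2 ratio of 3p to 5p over all libraries, 6.71 for miR-335, it ranked 6 of 44 from the 3p end. Precursors with a single arm listed were left out, among them the abundant miR-381 and miR-25, whose 5p arms were not listed. The rank and the median share below therefore hold only among precursors with both arms listed, and the most one-sided ones are missing from them. The nearest were miR-221 at 6.59, miR-323a at 6.38, miR-320a at 7.19 and miR-148a at 7.50. The minor arm held 0.885% of the tags for miR-335, and the median over the 44 was 2.70%. Over the 44, the higher arm had more A or U than the lower arm among its first 5 bases in 18, miR-335 included. It had fewer in 18 and the same number in 8. The 44 mix near-balanced and one-sided precursors (minor arm 0.0234% to 49.5% of tags), which were not counted apart. Whether base composition at the 5′ end bears on which arm is higher was not tested.

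**Figure D2:**
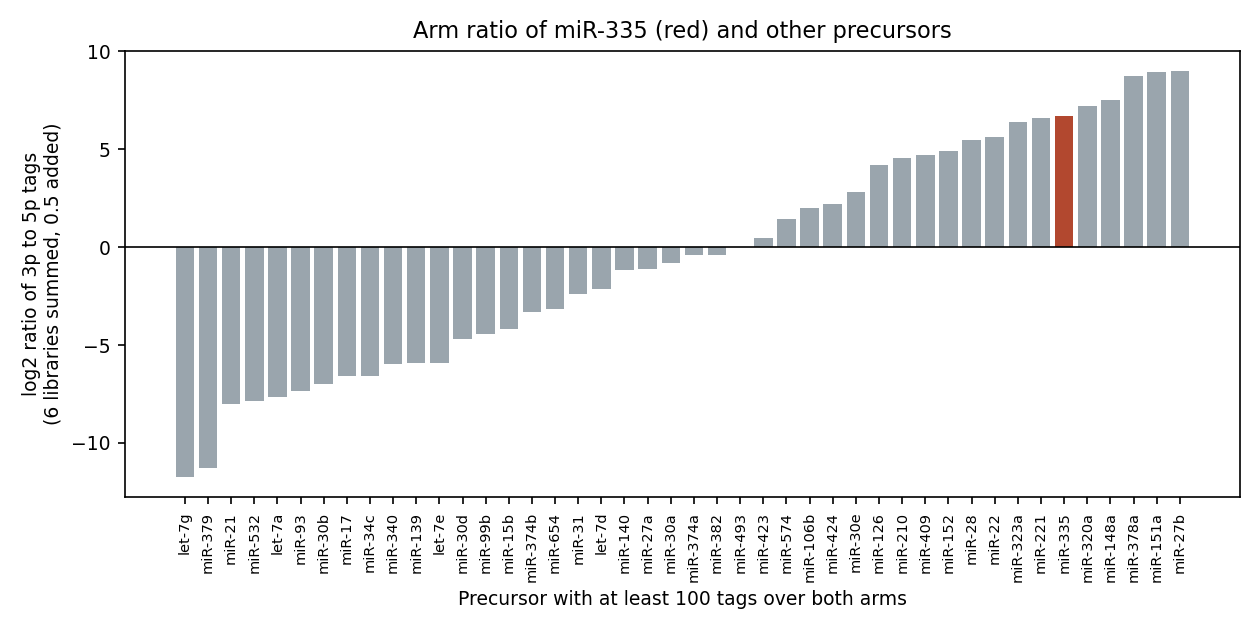
The log2 ratio of 3p to 5p tags (vertical axis, 6 libraries summed, 0.5 added to each arm) for 44 precursors with both arms listed and at least 100 tags (horizontal axis, in order of the ratio), with miR-335 in red. miR-335 stood at 6.71, rank 6 of 44, among precursors that gave mostly the 3p arm.

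In co-culture miR-335-3p was a smaller part of the miRNAs than in single culture. Levels are given first as CPM, tag counts per 1000000 tags of a library size scaled by edgeR's TMM method, which sets most miRNAs equal between libraries. On this scale miR-335-3p was at 410.6, 509 and 461 CPM in co-culture libraries 1, 2 and 3, against 833, 713 and 859 CPM in single culture libraries 1, 2 and 3. The groups did not overlap, and the lowest single culture library lay 1.40 times above the highest co-culture library. From high to low the order was single culture 3, 1 and 2, then co-culture 2, 3 and 1.

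The means were 460 ± 49.0 CPM in co-culture and 802 ± 78.0 CPM in single culture (SD, n = 3 each). edgeR gave a log2 fold change of -0.80 (standard error 0.14), a level 42.7% lower in co-culture. The SD was 10.6% of the mean in co-culture and 9.73% in single culture, where the median over the 182 tested sequences was 13.3% and 22.2%. The counting intervals (95% Poisson) ran from 336 to 497, 439 to 586 and 385 to 547 CPM in co-culture libraries 1, 2 and 3, and from 733 to 942, 522 to 951 and 652 to 1111 CPM in single culture libraries 1, 2 and 3. Single culture library 2, with 46 tags, is the one whose interval reaches into those of co-culture.

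Of the 2 arms, only miR-335-3p had the minimum of 10 counts in 3 libraries, and it was past an adjusted p of 0.05 in edgeR, in the lower direction. It was not past that threshold in 8 of 17 other settings, 5 of them with 1 library left out. Of the 182 sequences tested, 2.2% were called lower, and 4.4% in either direction. Groups did not overlap, with co-culture lower, for 15.9% of the 182, with co-culture higher for 19.8%, and in either direction for 35.7%. Since the arms were chosen with this call known, nothing is read from either share. By size of the fall, miR-335-3p stood at rank 24 of the 99 sequences with a negative log2 fold change. Its standard error was rank 18 of 182 from the smallest.

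**Figure D3:**
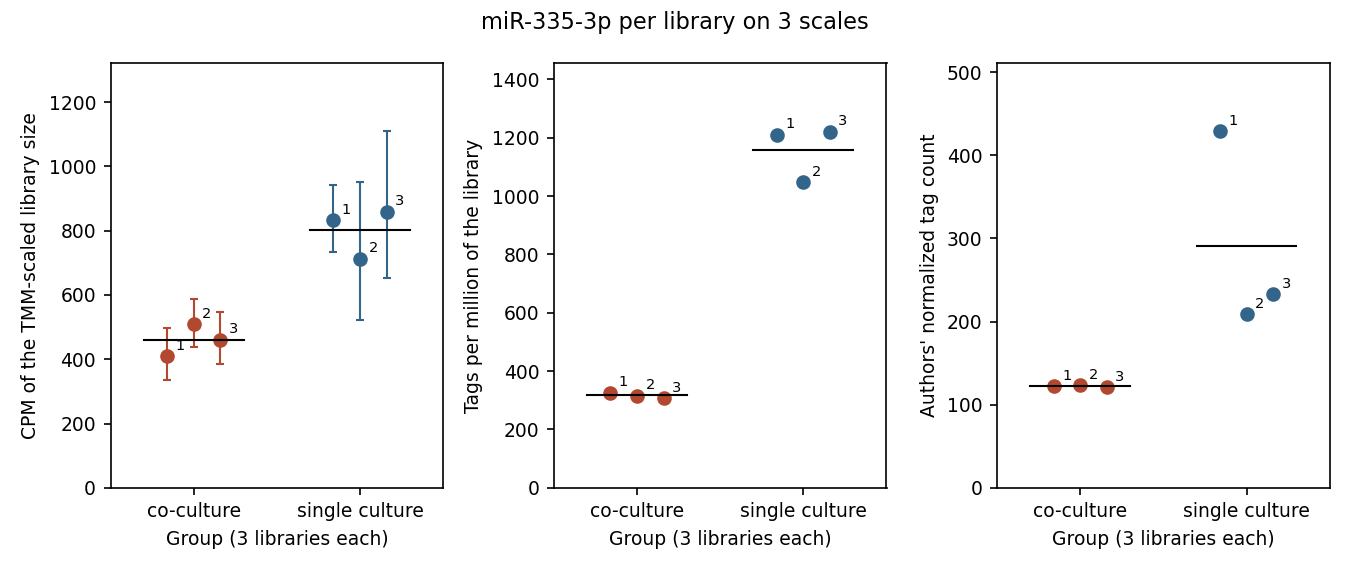
miR-335-3p in 3 co-culture (left) and 3 single culture libraries (right) on 3 linear scales, with the library number beside each point, the group mean as a line and 95% Poisson counting intervals as bars in the left panel. On each scale all co-culture libraries lay below all single culture libraries, with the widest spread for single culture on the authors' scale (209 to 429).

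The size of the difference changed with the scaling, and its direction did not. With CPM taken over the unscaled library totals, miR-335-3p was at 326.1, 316 and 308 CPM in co-culture libraries 1, 2 and 3, against 1210, 1047 and 1220 CPM in single culture libraries 1, 2 and 3. On those totals the log2 fold change was -1.88 (standard error 0.15). They also moved the median log2 fold change over the 182 sequences to -1.11, against -0.04 with TMM. The forms of miR-21-5p, the most abundant miRNA here, held 75.0% to 81.2% of the tags in co-culture and 37.1% to 56.4% in single culture, which leaves a smaller share for all others together. In the authors' normalized tag counts miR-335-3p was at 122, 124 and 121 in co-culture libraries 1, 2 and 3, against 429, 209 and 233 in single culture libraries 1, 2 and 3.

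A ratio of 2 miRNAs within a library needs no scaling. miR-335-3p tags were divided by the tags of each of the 165 other tested sequences listed in all 6 libraries. The ratio was lower in every co-culture library than in every single culture library against 101 of them (61.2%), overlapped for 63 and was higher against 1, chr4_16733, an author-named sequence. When each of the 166 sequences took the place of miR-335-3p in turn, the median count was 17 and miR-335-3p stood at rank 7. The 101 ratios share the same miR-335-3p tags. The count takes lower ratios only and the arms were chosen with the fall known, so nothing is read from the rank. To let-7a-5p, a widely expressed miRNA that restrains proliferation, the mean log2 ratio of miR-335-3p was -2.16 in co-culture and -1.07 in single culture. To miR-29a-3p, known for targeting collagen mRNAs, it was -1.43 in co-culture and -0.23 in single culture. To miR-221-3p it was -1.35 in co-culture and -1.16 in single culture, and the groups overlapped. The log2 fold changes of these references themselves were 0.26 for let-7a-5p, 0.37 for miR-29a-3p and -0.62 for miR-221-3p. Over all 165 sequences, the median difference in the mean log2 ratio, co-culture minus single culture, was -0.75.

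Over 17 other settings the log2 fold change of miR-335-3p was negative in all 17, from -1.88 with library size alone to -0.70 when the miR-21-5p forms were left out of the scaling. With 1 library left out in turn it ran from -0.90 to -0.74. Leaving out both single culture libraries of fewest tags, 2 and 3, gave -0.85. Since the groups did not overlap in CPM, leaving out libraries could change the size but hardly the direction.

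Some properties of the libraries moved with the groups. Total tags were 325037, 604418 and 421964 in co-culture libraries 1, 2 and 3, and 209043, 43956 and 47528 in single culture libraries 1, 2 and 3. Sequences of 17 to 20 nt held 2.12% to 3.79% of tags in co-culture and 7.56% to 25.7% in single culture. With sequences of 21 nt or longer only, a setting added after seeing the data, the log2 fold change of miR-335-3p was -0.89. Single culture library 1 stood nearer to co-culture (correlation 0.970 to 0.981 in log2 CPM over the tested sequences) than to single culture libraries 2 and 3 (0.932 and 0.914). Its miR-335-3p level of 833 CPM lay with its own group. The arms were chosen with this group difference known, so nothing is read from that. Of 13 miRNA markers of hepatocytes, blood cells, endothelium and epithelium, 11 were not listed in any library, miR-122-5p and miR-223-3p among them. The other 2 are the arms of the endothelial miR-126, and the summed level of the list was 186.4 to 255 CPM in co-culture and 124 to 174 in single culture. Of 5 mesenchymal miRNAs, 4 were listed, with summed levels of 857 to 945 CPM in co-culture and 829 to 3022 CPM in single culture. Nearly all of each sum was miR-143-3p, at 860 ± 41.9 CPM in co-culture and 2058 ± 1142 CPM in single culture (SD, n = 3 each). The part of these differences in the miR-335-3p result was not tested.

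miR-335-5p was too rare for a fold change. Its 3, 2 and 2 tags equal 11.6, 5.32 and 7.09 CPM in co-culture libraries 1, 2 and 3. In single culture, 2 tags would equal 6.58, 31.0 and 29.6 CPM in libraries 1, 2 and 3, more in libraries 2 and 3 than any co-culture library held. At the pooled co-culture level of 7.64 CPM, 2.32, 0.493 and 0.516 tags would be held by single culture libraries 1, 2 and 3. At the pooled co-culture arm share, which needs no scaling, these numbers would be 4.15, 0.754 and 0.951, and at the co-culture CPM over unscaled library totals they would be 1.08, 0.228 and 0.246. Both groups were at or under 3 tags in every library, so no fold is given, and a difference in the 5p arm was not detectable at this depth. A pattern of being listed in all co-culture libraries and in no single culture library was shared by 7 of the 463 sequences (1.51%), among them miR-148a-5p and miR-154-5p, and the reverse pattern by 0. Of 19 sequences listed in all co-culture libraries with at most 9 tags there in total, 4 had it.

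By Pearson correlation of log2 CPM over the 6 libraries, the tested sequences most like miR-335-3p were miR-27b-3p (r = 0.96), miR-221-3p (0.96) and miR-103a-3p (0.93). The 6 points share the group difference, the depth and the scaling, so r describes these libraries only. miR-27b-3p, from an intron of AOPEP, was at 5338, 5575 and 5375 CPM in co-culture and 8008, 7639 and 7450 CPM in single culture. miR-221-3p, reported to promote fibrosis, was at 1119, 1137 and 1244 CPM in co-culture and 1929, 1689 and 1763 CPM in single culture. miR-103a-3p, hosted by the pantothenate kinase genes, was at 852, 839 and 904 CPM in co-culture and 1053, 961 and 1066 CPM in single culture. Since they were picked by this correlation, their split between the groups is part of the choice.

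Other miRNAs of the same chromosome band showed no shared direction. Of 10 names with a locus in 7q32, among them the miR-183/96/182 cluster, the miR-29a/29b-1 cluster and miR-129, 7 were listed and 6 tested. edgeR called 0 of the 6 (1 at an unadjusted p under 0.05, and 0 in DESeq2). Over all 182 tested, edgeR called 8, 46 were at an unadjusted p under 0.05 and DESeq2 called 22. The median log2 fold change of the 6 was -0.05, against -0.04 over all tested. miR-29a-3p was at 1239 ± 81.5 CPM in co-culture and 946 ± 158 CPM in single culture (SD, n = 3 each). miR-182-5p was at 131 ± 10.3 CPM in co-culture and 112 ± 36.9 CPM in single culture (SD, n = 3 each). miR-29b-3p and miR-129-5p also have a second locus on another chromosome, and their tags cannot be assigned to either.

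Other imprinted miRNAs were divided in direction. Of the DLK1-DIO3 cluster at 14q32, an imprinted locus read from the maternal copy, 50 sequences were listed and 21 tested, with 10 positive and 11 negative log2 fold changes, a median of -0.01 and 0 called in edgeR (1 at an unadjusted p under 0.05, and 0 in DESeq2). Its most abundant member, miR-381-3p, was at 25281 ± 694 CPM in co-culture and 25417 ± 410 CPM in single culture (SD, n = 3 each). Of 7 imprinted miRNA names outside that cluster, only the arms of miR-296 were listed, and neither was tested. For miRNAs in introns of protein-coding genes, the class to which miR-335 belongs, 52 sequences other than miR-335 were listed and 31 tested, 8 with a positive and 23 with a negative log2 fold change, where 99 of all 182 were negative. Their median was -0.21, against -0.04 over all tested, and the range was -0.58 to 0.68. edgeR called 0 of the 31 (3 at an unadjusted p under 0.05), and DESeq2 called 1. Over all 182 tested, edgeR called 8 (46 at an unadjusted p under 0.05) and DESeq2 called 22.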

How the data were processed

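Small RNA of 6 LX-2 libraries (3 in each group) was sequenced on an Illumina platform. Per the labels, processing used Bowtie 0.12.2 and the builds hg18 and mm8, and the sources used here do not give their roles. The authors deposited raw tag counts per mature miRNA (520 rows, smallest count 2) and normalized tag counts, a signal equal to the raw count times about 1 factor per library. A deposited comparison table holds their fold changes, p-values and FDR, which were not used. Its 2 group mean columns gave each count column its group: in 520 of 520 rows they equal the mean over the columns so assigned, with 1 added to each normalized value, and in 14 rows the mean over those of the other group. There were 0 columns without a group.

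Rows with the same sequence held the same counts and were merged. edgeR 4.0.16 (quasi-likelihood test, TMM, at least 10 counts in 3 libraries, Benjamini-Hochberg over 182 sequences) in R 4.3.3 was the main fit, tested on simulated data. Standard errors were taken as log2 fold change over the t value that gives its p. log2 CPM used a prior count of 2. DESeq2 1.42.0 and limma 3.58.1 were alternatives, as were RLE scaling, library size alone, scaling without miR-21-5p forms, other minimum counts, known names only, a replicate block and libraries left out. The limit for an arm not listed was 3 tags. RNAfold 2.7.2 folded the RefSeq hairpin. Whether the libraries came from separate cultures is not stated, so p-values measure the spread between libraries; no 2 of a group were duplicates (chi-square per degree of freedom 3.46 to 144). The members, lists and settings were chosen with earlier results of these data known. Named beside the members by rule were the 3 most correlated sequences, the nearest arm pairs, and abundant members of each list. Those named after their values were seen were let-7a-5p, miR-148a-5p, miR-154-5p and chr4_16733.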

Additional observations from a re-analysis of the deposited data

How the results depend on the processing

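The miR-335-3p log2 fold change kept its direction in all 17 other settings. Leaving out libraries could hardly turn it, as the groups did not overlap in CPM. It was -0.70 with the miR-21-5p forms left out of the scaling, -0.81 with a replicate block and -1.16 with limma on the authors' normalized values. In none of these was it past the adjusted p of 0.05. With 1 library left out it ran from -0.90 to -0.74, and it passed that threshold only without single culture library 1. The number of sequences past that threshold was 8, and it was 140 with library size alone (1 higher, 139 lower, against 4 and 4), 5 without the miR-21-5p forms in the scaling (4 higher, 1 lower), 37 with no minimum count, 21 with a minimum of 50, 13 without single culture libraries 2 and 3, and 22 with DESeq2 (5 higher, 17 lower); limma on the authors' normalized values gave 11, all lower. With 1 library left out it ran from 0 to 43: it was 43 without single culture library 1, 2 and 3 without its libraries 2 and 3, 5 without co-culture library 1, and 0 without co-culture library 2 or 3 (34 and 33 at an unadjusted p under 0.05 in edgeR). The replicate block gave 0 (30 at an unadjusted p under 0.05). Equal column numbers did not pair the libraries. With each group's mean taken out of log2 CPM, same-numbered libraries correlated at -0.36, -0.11 and -0.21 in what was left. Causes were not tested. The arm ratio difference between groups was -1.83, and it was 1.04 with each blank as 3 tags, -3.35 without single culture libraries 2 and 3, and -2.30 to -1.07 with 1 library left out. With each blank as 1 tag it was -0.54, and -1.01 to 0.22 with 1 library left out as well, at 0.22 without single culture library 1 and -0.15 without co-culture library 1. A blank can stand for 1 tag at most, so the value for 3 tags is past what the table allows. The mean arm ratio over libraries was 6.06 to 6.87 with 1 library left out, where 5 libraries cannot give a p below 0.0625. With no count added, no ratio could be formed for single culture. No fold change is given for miR-335-5p under any setting. Depth limits the 5p arm: in single culture libraries 2 and 3, 1 tag equals 15.5 and 14.8 CPM.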
